A study of Mus musculus with 12 samples.

Results

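Old hematopoietic stem cells (HSCs) have been described as biased toward platelet production, and 10 genes reported to rise in such cells were followed here: Selp, Vwf, Clu, Aldh1a1, Nupr1, Itgb3, Itga2b, Jam2, Fhl1 and Pf4. They were taken by gene symbol from the 22548 genes measured by RNA-seq in 12 samples of sorted mouse HSCs, and all 10 had a row. Of these markers, only Itgb3 (CD61) stood higher in aged than in young HSCs with an unadjusted p under 0.05, and no marker passed after adjustment over all genes. After treatment of aged cells with CASIN, an inhibitor of the small RhoGTPase Cdc42, Itgb3 was lower than in untreated aged cells at the same unadjusted threshold. Pf4 was higher there by 1.01, or 0.46 without the 1 treated sample in which it was detected. Its other values in these groups were the lowest values of their samples. Neither Itgb3 nor Pf4 passed after adjustment. Of the other 8 markers, Fhl1 was detected in every sample, between 6.38 and 9.41 on the log2 scale, and 7 were missing from between 3 and 10 of the 12 samples.

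All cells came from C57BL/6 mice and were sorted as long-term HSCs, in the gate negative for lineage markers and Flk2, positive for c-Kit and Sca-1 and negative or low for CD34. The young group comprised 4 samples from mice aged 2 to 4 months, with no CASIN. The aged group comprised 5 samples from mice aged 20 to 26 months, also with no CASIN. The third group comprised 3 samples of aged cells, from mice of the same 20 to 26 months, given 5 µM CASIN. The labels give a culture of 16 h at 3% O2 for every sample, and at least 200 cells per library, whereas the methods of the study give a larger number of pooled cells and more repeats per group than the CASIN-treated samples analysed here. The methods call the RNA-seq repeats biological, a term they define by separate days and separate mice. The labels do not tie a sample to an animal. The p-values below thus measure the spread between these samples, part of which may be technical.

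HSCs sit at the top of the blood lineages and give rise to all of them. With age, phenotypic HSCs become more numerous, but each works less well after transplantation, and their output leans to the myeloid and platelet lineages. A subset of HSCs carries RNAs that are otherwise typical of megakaryocytes, the cells that shed platelets, and von Willebrand factor is the best known marker of that subset. Several of the 10 genes belong to this platelet programme. Itga2b and Itgb3 pair into the platelet fibrinogen receptor, Selp and Pf4 encode proteins stored in platelet granules, and Vwf encodes the plasma protein that tethers platelets to the vessel wall. The others are a junctional adhesion molecule (Jam2), a secreted chaperone (Clu), a retinaldehyde dehydrogenase (Aldh1a1), a small stress-induced nuclear protein (Nupr1) and a LIM-domain protein (Fhl1).

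Values are log2 expression as deposited, brought by the authors to 1 common distribution, and differences are on that log2 scale. They are not read counts, and depth could not be read from them. In each sample many genes share its lowest value, and a gene above that value is called detected below. Detection over all genes differed with the groups: 6078 to 9673 genes in young, 11463 to 17621 in aged and 6845 to 20013 in CASIN-treated samples. The CASIN-treated sample of replicate 2 stood apart, with 88.8% of genes detected against 30.4% and 32.3% in replicates 1 and 3, and results that rest on it are given with and without it. The lowest value itself differed between samples, from 0.43 to 0.67 in young, 0.02 to 0.23 in aged and 0 to 0.63 in CASIN-treated samples.

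The sorted population was checked against its defining markers. Of 12 HSC markers, 4 to 7 were detected in a young sample, 8 to 12 in an aged sample and 4 to 12 in a CASIN-treated sample. Kit and Ly6a (Sca-1), both used in the gate, were at the lowest value in 4 of 4 young samples, so their RNA was not detectable there. In the aged group Kit was at the lowest value in replicates 3 and 5 and Ly6a in replicates 3 and 4. Their other aged values were between 0.22 and 2.21. Of the CASIN-treated samples only replicate 2 held Kit (6.80) and Ly6a (1.16). Meis1, a transcription factor of HSCs, was the only one of the 12 markers detected in all 12 samples, between 6.54 and 8.53. Of 3 genes taken as negative markers (Cd34, Flt3, which encodes Flk2, and Il7r), 1 to 2 were detected in young, 2 to 3 in aged and 1 to 3 in CASIN-treated samples. Il7r, which is not part of the gate given above, was detected in all 12 samples, between 3.885 and 7.21. Where the count was 1, it was Il7r, and Cd34 and Flt3 were at the lowest value. Among genes of other cell types, the mature megakaryocyte list (7 genes) had 0 to 3 detected in young, 2 to 6 in aged and 0 to 5 in CASIN-treated samples, at summed log2 values of 4.58 to 17.1, 5.31 to 14.1 and 4.39 to 11.5. These sums include the lowest values of genes not detected. In young replicate 5 and CASIN-treated replicate 1, with 0 of the 7 detected, the sums of 4.58 and 4.39 hold nothing else. Of 6 T cell genes, 3 to 4 were detected in young, 4 to 6 in aged and 3 to 6 in CASIN-treated samples. Cd3d of that list was between 8.26 and 9.98 in all 12 samples. Itgam (CD11b) and Cd8a, whose proteins the lineage depletion targets, were between 7.48 and 9.17 and between 3.03 and 7.86 in all 12. These 3 genes were named after their values were seen. In bulk RNA a change in the number of cells of one kind and a change in RNA per cell cannot be told apart.

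The promoters of Pf4 and Fhl1 are shown because, among markers with a promoter window, these genes were the extremes in how often a marker was seen. Pf4 was at the lowest value in 11 of 12 samples and Fhl1 was above it in all 12. Itgb3 was also above it in all 12, but no window was found for Itgb3. GATA factors and ETS factors such as FLI1 bind many megakaryocyte promoters. Both strands were searched for a GATA motif, spelled AGATAA in one form and with a T as the first letter, TGATAA, in the other. They were also searched for the ETS motif CCGGAA, and the matches do not overlap each other in these windows. The windows are from RefSeq, build GRCm38.p6 (mm10), from 250 bases before to 50 after the start, on the plus strand, with motif matches in capitals on either strand. Pf4 is at chr5:90772185-90772484 and Fhl1 at chrX:56779433-56779732, the first of its 2 windows in the table.
Pf4: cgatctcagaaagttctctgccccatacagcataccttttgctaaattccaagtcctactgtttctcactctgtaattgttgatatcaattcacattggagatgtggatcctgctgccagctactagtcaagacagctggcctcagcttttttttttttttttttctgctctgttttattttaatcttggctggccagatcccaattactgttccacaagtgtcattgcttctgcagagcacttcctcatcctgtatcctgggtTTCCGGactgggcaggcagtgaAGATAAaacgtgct
Fhl1: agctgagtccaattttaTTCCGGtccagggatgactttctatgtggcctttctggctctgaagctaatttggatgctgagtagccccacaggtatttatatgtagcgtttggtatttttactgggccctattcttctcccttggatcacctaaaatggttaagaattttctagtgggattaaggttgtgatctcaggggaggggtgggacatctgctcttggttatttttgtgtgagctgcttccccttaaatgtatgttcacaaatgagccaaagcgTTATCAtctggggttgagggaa
Counted from the start site, the Pf4 window held CCGGAA on the minus strand at position 14 and AGATAA on the plus strand at 36. The Fhl1 window held TGATAA on the minus strand at 28 and CCGGAA on the minus strand at -233. Over all 32851 promoter windows, 18.6% held at least 1 of the GATA motifs, 14.9% held CCGGAA and 1.47% held both kinds. Windows were found for 6 of the 10 markers. The second Aldh1a1 window held AGATAA at -32, while those of Selp, Nupr1 and Itga2b, the first of Aldh1a1 and the second of Fhl1 held none of these letters. A match is a description of the letters only.

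Of the integrin pair, Itgb3 passed the unadjusted threshold in aged against young and in CASIN against aged, but not after adjustment. Itga2b did not pass any threshold. Itgb3 (chr11:104608000-104670476, plus strand) encodes the β3 chain. In young HSCs its log2 values were 6.77, 5.91, 6.97 and 7.63 in replicates 2 to 5. Aged HSCs gave 8.21, 8.01, 8.83, 8.03 and 7.28 in replicates 0 and 2 to 5. CASIN-treated aged HSCs gave 6.47, 7.79 and 5.67 in replicates 1 to 3. Of the aged samples, 4 of 5 lay above every young sample and every CASIN-treated sample, and aged replicate 5 lay below young replicate 5 and CASIN-treated replicate 2, so the groups overlapped. Itgb3 was among the more abundant genes of each library, at the 85.4th to 95.7th percentile in young, the 94.0th to 98.9th in aged and the 83.7th to 96.5th in CASIN-treated samples.

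Mean Itgb3 in young HSCs was 6.82 ± 0.71 (SD, n = 4). It was 8.07 ± 0.55 (SD, n = 5) for aged HSCs and 6.64 ± 1.07 (SD, n = 3) for those given CASIN. The aged-minus-young difference was 1.25 (SE 0.54, 95% interval 0.07 to 2.43), with an unadjusted limma p of 0.0399, adjusted p of 0.764, and an exact two-sided permutation p of 0.0238. The CASIN-minus-aged difference was -1.43 (SE 0.58, 95% interval -2.71 to -0.14), with an unadjusted limma p of 0.0327, adjusted p of 0.948, and an exact permutation p of 0.0357. Of all genes, 83.2% had a smaller aged-minus-young difference than Itgb3, and 13.4% had a more negative CASIN-minus-aged difference. These comparisons share the aged samples, so they are not independent of each other. CASIN-treated and young samples differed by -0.18 (95% interval -1.52 to 1.17, limma adjusted p = 1), an interval that leaves room for a difference of more than 1 log2 unit in either direction.

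Both Itgb3 differences kept their sign in every one of the 22 alternative fits, but not their threshold. For aged against young the unadjusted limma p was under 0.05 in 8 of 22 alternatives and was lost when any one of young replicates 2, 3 or 4 or aged replicates 0, 2, 3 or 4 was left out, with a difference of 0.95 to 1.52 over the fits that leave out 1 sample. For CASIN against aged it was under 0.05 in 11 of 22. Without CASIN-treated replicate 2 the difference was -2.0 (limma adjusted p = 0.442), past the unadjusted threshold, and without replicate 3 it was -0.94, short of it. When the number of detected genes was a covariate, the aged-minus-young difference was 0.74 and the unadjusted limma p was 0.263. Detection thus moved with these groups, and its part in the difference was not tested.

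**Figure D1:**
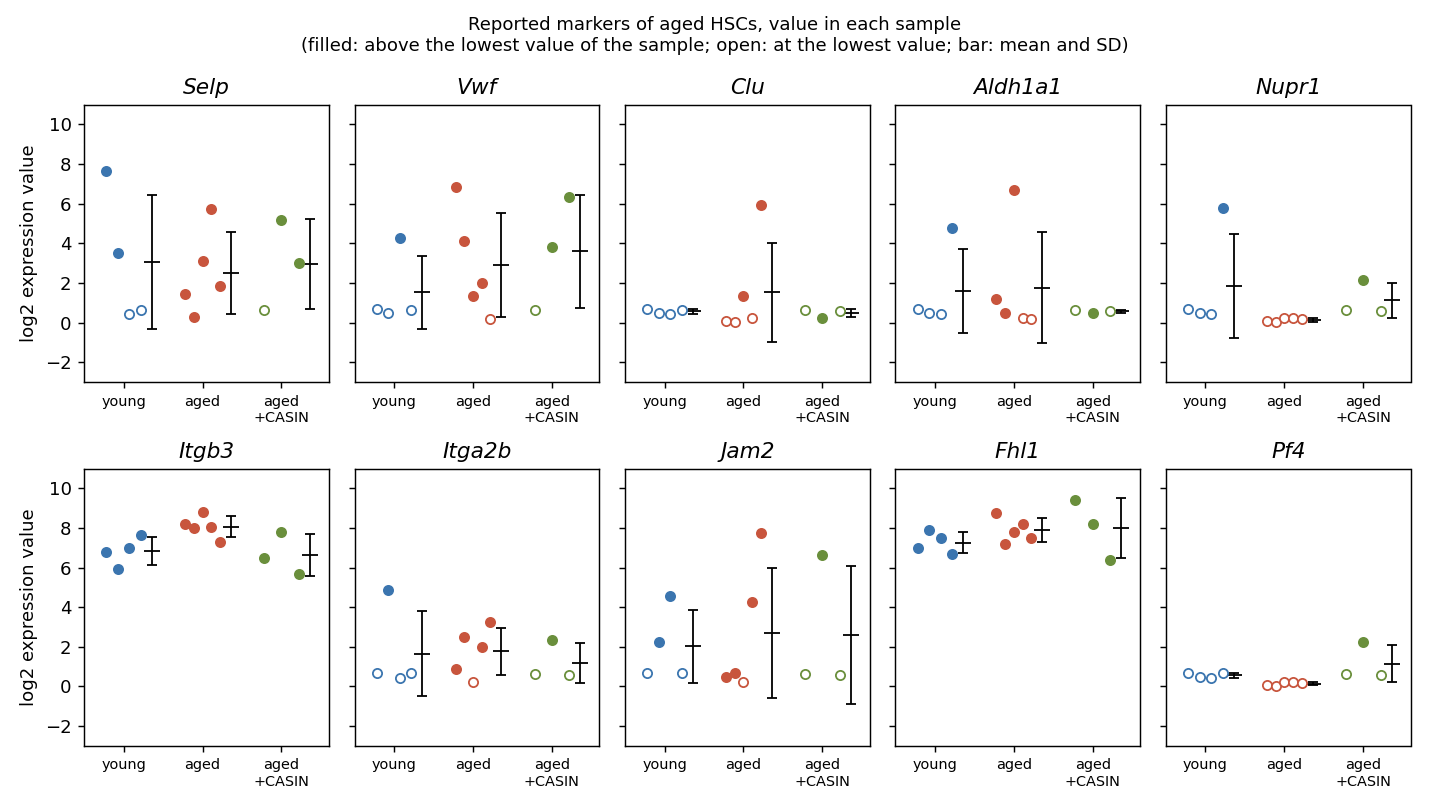
Log2 expression of the 10 markers in each of the 12 samples, 1 panel per gene, with samples grouped as young, aged and CASIN-treated aged, and the group mean and SD as bars. Filled points are above the lowest value of their sample and open points are at it. Itgb3 and Fhl1 are detected in all 12 samples, whereas the points of the other 8 genes are split between the lowest value and values up to 7.75.

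Itga2b (CD41, chr11:102453297-102470122, minus strand), the α chain that pairs with Itgb3 on platelets, was detected in 6 of 12 samples, whereas Itgb3 was detected in all 12. Only replicate 3 of the young samples held it, at 4.86, and the other 3 were at the lowest value. The aged samples gave 0.90, 2.48, 0.23, 1.97 and 3.24, of which the value of replicate 3 is its lowest. Of the CASIN-treated samples only replicate 2 held it, at 2.34. It was therefore seen in 4 of 5 aged and 1 of 4 young samples, but the 1 young value exceeded every aged value. Group means were 1.65 ± 2.14 (SD, n = 4), 1.76 ± 1.21 (SD, n = 5) and 1.18 ± 1.01 (SD, n = 3), and the aged-minus-young difference was 0.11 (SE 0.99, 95% interval -2.08 to 2.30, limma adjusted p = 0.986). CASIN minus aged was -0.58 (95% interval -2.96 to 1.80, limma adjusted p = 0.966).

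Selp (P-selectin, chr1:164115264-164150026, plus strand) encodes an adhesion receptor that platelets and endothelium bring to their surface when activated. Its exons overlap Gm16587 and Gm16548 on the other strand, and no statement on strand-specific counting is in the sources used here. The young samples gave 7.66, 3.51, 0.43 and 0.65, of which the last 2 are lowest values. All 5 aged samples held it, at 1.46, 0.29, 3.11, 5.74 and 1.84, and the CASIN-treated samples gave 0.63 (the lowest value), 5.15 and 3.03. The highest of the 12 values was in a young sample, and the 3 groups overlapped throughout. The aged-minus-young difference was -0.58 (SE 1.63, 95% interval -4.18 to 3.03, limma adjusted p = 0.944), and CASIN minus aged was 0.45 (95% interval -3.47 to 4.37, limma adjusted p = 0.993).

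Jam2 (chr16:84774123-84825928, plus strand), an immunoglobulin-family adhesion molecule of endothelium and HSCs, was detected in 7 of 12 samples. In the young group it was 2.22 in replicate 3 and 4.55 in replicate 4, and at the lowest value in the others. The aged samples gave 0.48, 0.67, 0.23 (the lowest value), 4.24 and 7.75. CASIN-treated replicate 2 gave 6.63 and the other 2 were at the lowest value. High and lowest values thus occurred in every group. All 6 samples that held Itga2b also held Jam2, and all 6 held Selp as well. Mean Jam2 was 2.02 ± 1.84 (SD, n = 4), 2.67 ± 3.28 (SD, n = 5) and 2.61 ± 3.48 (SD, n = 3). Differences were 0.65 (95% interval -3.37 to 4.68) for aged minus young and -0.06 (95% interval -4.45 to 4.32) for CASIN minus aged, with limma adjusted p of 0.944 and 1.

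Of the secreted platelet proteins, Vwf (chr6:125546774-125686679, plus strand) was detected in 1 of 4 young samples, replicate 4, at 4.29. It was detected in 4 of 5 aged samples, with values of 6.85, 4.12, 1.36 and 1.97 in replicates 0, 2, 3 and 4, and was at the lowest value in replicate 5. CASIN-treated replicates 2 and 3 gave 3.82 and 6.34, and replicate 1 was at its lowest value. Vwf had the largest positive aged-minus-young difference of the 10 markers, but 4 of the 5 aged samples lay below the young value of 4.29 that was detected and only replicate 0 stood above it. Means were 1.52 ± 1.85 (SD, n = 4), 2.89 ± 2.64 (SD, n = 5) and 3.60 ± 2.86 (SD, n = 3). The differences were 1.37 (SE 1.54, 95% interval -2.02 to 4.76) for aged minus young, 0.70 (95% interval -2.99 to 4.39) for CASIN minus aged and 2.07 (95% interval -1.79 to 5.93) for CASIN minus young, with limma adjusted p of 0.847, 0.981 and 1. Aged minus young ranged from 0.38 (without aged replicate 0) to 2.29 (without young replicate 4) when 1 sample was left out, and was 0.02 with the number of detected genes as a covariate. CASIN minus young ranged from 0.70 (without CASIN-treated replicate 3) to 3.56 (without replicate 1).

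Pf4 (platelet factor 4, chr5:90772435-90773383, plus strand), the chemokine of platelet granules whose promoter is printed above, was at the lowest value in 4 of 4 young, 5 of 5 aged and 2 of 3 CASIN-treated samples. CASIN-treated replicate 2 held it at 2.25. The CASIN-minus-aged difference was 1.01 (SE 0.43, 95% interval 0.06 to 1.96), with an unadjusted limma p of 0.0391 and an adjusted p of 0.948. It was 0.46 without that sample and 0.53 when every sample was given a common lowest value, and neither of these had an unadjusted limma p under 0.05. The aged-minus-young difference of -0.42 (SE 0.40, limma adjusted p = 0.812) compared lowest values only and is no measure of Pf4. Pf4 was the least often detected marker.

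Fhl1 (chrX:56731787-56793346, plus strand), whose LIM-domain protein binds the actin cytoskeleton and signalling proteins, was detected in all 12 samples. The young samples gave 6.98, 7.92, 7.49 and 6.67. The aged samples gave 8.76, 7.20, 7.80, 8.19 and 7.51, and the CASIN-treated samples gave 9.41, 8.22 and 6.38. The lowest and the highest Fhl1 values were both in CASIN-treated samples. Means were 7.27 ± 0.55 (SD, n = 4), 7.90 ± 0.61 (SD, n = 5) and 8.0 ± 1.52 (SD, n = 3). Aged minus young was 0.63 (SE 0.61, 95% interval -0.72 to 1.98, limma adjusted p = 0.817) and CASIN minus aged was 0.11 (SE 0.66, 95% interval -1.36 to 1.57, limma adjusted p = 0.995).

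Clu, Aldh1a1 and Nupr1 were each detected in few samples, and a single high sample set their means. Clu (clusterin, chr14:65968483-65981547, plus strand) was at the lowest value in all 4 young samples, at 5.91 in aged replicate 5 and at 1.36 in aged replicate 3, and at 0.22 in CASIN-treated replicate 2. The other 5 samples of aged and CASIN-treated cells were at their lowest values. Aged minus young was 0.96 (SE 1.07, 95% interval -1.41 to 3.32, limma adjusted p = 0.847), and CASIN minus aged was -1.04 (95% interval -3.61 to 1.53, limma adjusted p = 0.948). Leaving out 1 sample at a time took the aged-minus-young difference from -0.14 to 1.33.

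Aldh1a1 (chr19:20492715-20643465, plus strand) makes retinoic acid from retinaldehyde and has a close paralog, Aldh1a7, with which reads may be shared. It was at 4.79 in young replicate 5 and at the lowest value in the other young samples. Aged replicates 0, 2 and 3 gave 1.16, 0.46 and 6.71, and replicates 4 and 5 were at their lowest values. CASIN-treated replicate 2 gave 0.48, and the other 2 were at the lowest value. Both control groups thus held 1 high sample. Aged minus young was 0.15 (SE 1.40, 95% interval -2.95 to 3.25, limma adjusted p = 0.987), and CASIN minus aged was -1.18 (95% interval -4.56 to 2.19, limma adjusted p = 0.951).

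Nupr1 (chr7:126623249-126630861, minus strand) was detected in young replicate 5, at 5.80, and in CASIN-treated replicate 2, at 2.15. All 5 aged samples were at their lowest values. The aged-minus-young difference was -1.71 (SE 1.01, 95% interval -3.94 to 0.53, limma adjusted p = 0.764) and CASIN minus aged was 0.98 (SE 1.10, 95% interval -1.45 to 3.41, limma adjusted p = 0.948). Exact permutation tests gave p = 0.00794 for Nupr1 and also for Pf4 in aged against young, because every aged sample's lowest value is below every young sample's, and the same values would arise for any gene listed there at the lowest value in both groups.

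Set against all 22548 genes, the markers gave counts that are small in absolute terms. At an unadjusted limma p under 0.05, 1 of 10 markers (Itgb3) was higher in aged than in young HSCs, where 3.2% of all genes were, and 0 were lower, where 2.13% of all genes were. At an adjusted p, 0 of 10 passed, against 0.0177% of all genes. For CASIN against aged, 1 (Pf4) was higher and 1 (Itgb3) lower at the unadjusted threshold, against 2.48% and 1.92% of all genes, and 0 passed after adjustment, against 0.0222%. For CASIN against young, 0 of 10 were higher and 0 lower by limma, even unadjusted, against 2.9% and 1.39% of all genes, and 0% of genes passed after adjustment. By exact permutation 3 markers (Nupr1, Itgb3 and Pf4) had an unadjusted p under 0.05 in aged against young, where 13.1% of all genes did, and in CASIN against aged, where 5.22% did. None did in CASIN against young, where 1.22% did. Of these 3, only Itgb3 rests on detected values in both groups. In CASIN against aged, Nupr1 and Pf4 were detected in CASIN-treated replicate 2 alone, and the lowest values of replicates 1 and 3 lie above every lowest value of the aged samples. Without CASIN-treated replicate 2, the CASIN-minus-aged differences of the genes it held and the other treated samples did not were -1.16 for Itga2b, -2.07 for Jam2, 0.46 for Nupr1, 0.46 for Pf4, -0.91 for Clu and -1.14 for Aldh1a1, and Selp turned to -0.66. For all but Selp these values rest on treated samples that were at their lowest values.

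**Figure D2:**
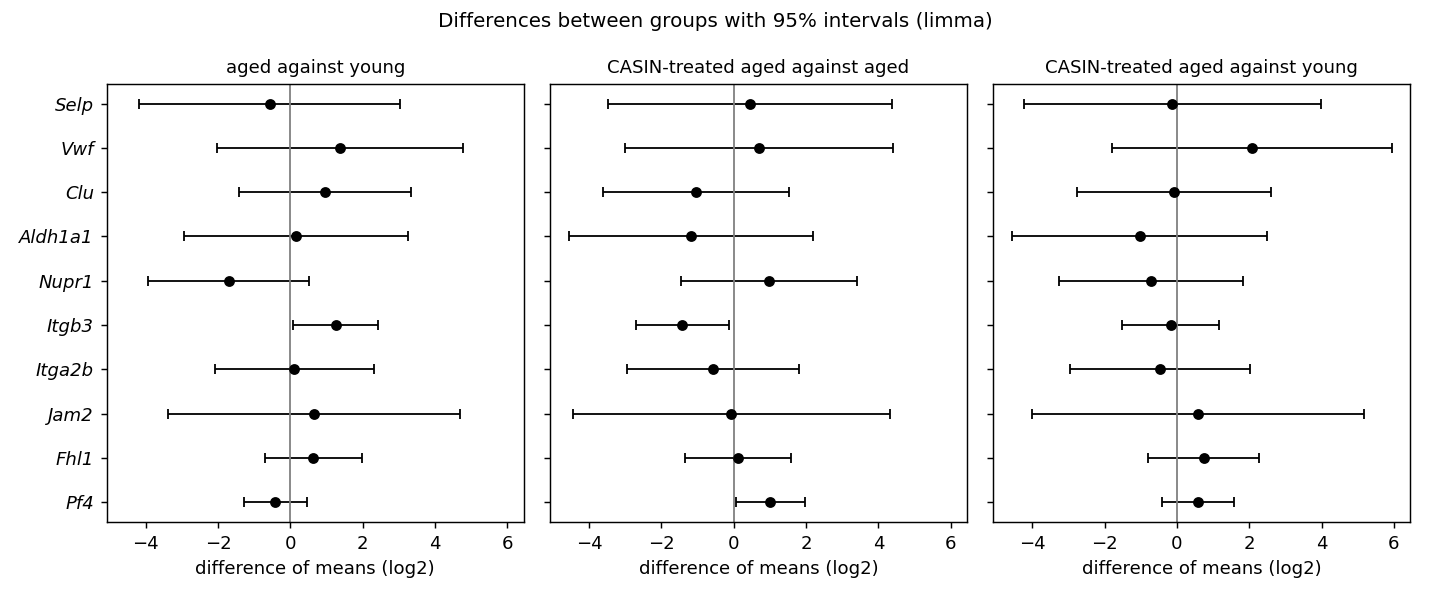
Log2 differences of the 10 markers, with limma 95% intervals as bars, for aged minus young, CASIN-treated aged minus aged and CASIN-treated aged minus young. Itgb3 has an interval that excludes 0 in the first comparison (0.07 to 2.43), Itgb3 and Pf4 do in the second, and none does in the third.

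Of the 10 markers, 7 had a positive aged-minus-young difference and 3 (Selp, Nupr1 and Pf4) a negative one, where 50.52% of all genes were positive. The median was 0.39 against 0.02 over all genes. For CASIN minus aged, 5 were positive and 5 negative, where 48.35% of all genes were positive, with a median of 0.02 against -0.04. For CASIN minus young, 4 were positive and 6 negative, where 45.32% of all genes were positive, with a median of -0.10 against -0.09. These counts include differences between lowest values only, such as that of Pf4 in aged minus young. Averaged over the 10 markers, young samples stood at 2.69 ± 0.13 (SD, n = 4), aged samples at 2.93 ± 0.40 (SD, n = 5) and CASIN-treated samples at 2.83 ± 0.96 (SD, n = 3), while the mean over all genes was 2.23, 2.31 and 2.26.

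The markers were detected about as often as any gene was. Young samples held 3, 5, 4 and 4 of the 10 markers, aged samples 7, 7, 6, 6 and 6, and CASIN-treated samples 2, 10 and 4. Pooled, this is 16 of 40 gene-by-sample values in young, or 40.0%, against 34.3% over all genes. It is 32 of 50 in aged, or 64.0%, against 62.6%, and 16 of 30 in CASIN-treated samples, or 53.3%, against 50.5%. Every aged sample thus held more of the markers than every young sample, and more of all genes. The sample with the most markers, CASIN-treated replicate 2, was also the one with the most genes detected.

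**Figure D3:**
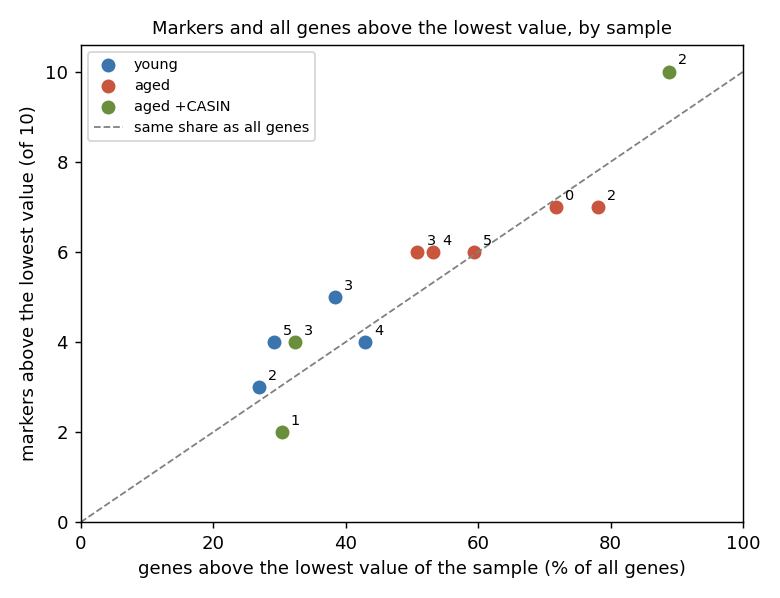
Each point is 1 sample, coloured by group and numbered by replicate, with the percentage of all genes above its lowest value on the x axis and the number of the 10 markers above it on the y axis, and a dashed line where both shares are equal. The points lie along the line, from 2 to 5 markers in young samples and CASIN-treated replicates 1 and 3, through 6 to 7 in aged samples, to 10 in CASIN-treated replicate 2.

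**Figure D4:**
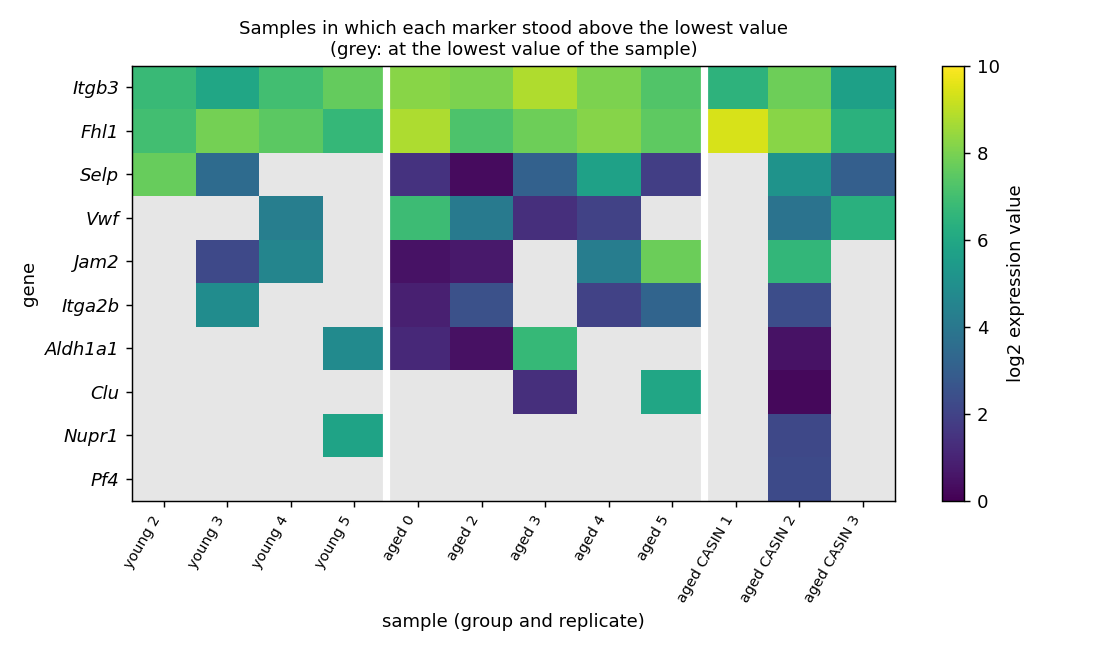
Heat map of the 10 markers (rows) in the 12 samples (columns, by group and replicate), coloured by log2 expression value, with grey where a gene is at the lowest value of its sample. The rows of Itgb3 and Fhl1 are filled throughout, and the column of CASIN-treated replicate 2 is the only one with no grey.

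For each marker detected in at least 6 samples, the gene with the most similar profile over the 12 samples was found among 11584 genes detected as often. Pearson's r was 0.959 for Itgb3 with Pclo, 0.952 for Itga2b with Lat, 0.916 for Jam2 with 1110002L01Rik, 0.899 for Vwf with Chrnb3, 0.894 for Selp with Nrd1 and 0.873 for Fhl1 with Glyr1. Each is the best of many over 12 points that share a normalization and differ in detection, and is a description only.

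Other genes of the same biology were taken from lists. Over all genes, 3.2% were higher and 2.13% lower in aged against young at an unadjusted limma p under 0.05. The shares were 2.48% and 1.92% in CASIN against aged, and 2.9% and 1.39% in CASIN against young. Median differences over all genes were 0.02, -0.04 and -0.09 in the 3 comparisons. Of 23 measured further genes reported to rise in old HSCs, 0 were higher and 2 lower in aged than in young at an unadjusted limma p under 0.05, with a median difference of -0.07, and 1 was higher in CASIN against aged. Outside the rule for naming genes, and chosen after their values were seen, the 2 lower ones were Cd38 (-2.33, SE 0.74, limma adjusted p = 0.724), which encodes an NAD-consuming ectoenzyme, and Art4 (-3.02), and Cd38 was also the gene higher after CASIN (2.10, limma adjusted p = 0.948). Of 31 other megakaryocyte and platelet genes, 4 were higher and 1 lower in aged than in young, with a median difference of 0.23. The higher ones were Gp5, Rab27b (2.63), Mmrn1 (2.52) and Cd226 (1.95), and the lower one was Treml1 (-3.58), all but Gp5 named after their values were seen. In CASIN against aged, 2 were lower, Gp5 and Cd226 (-2.09), with a median of -0.22, and in CASIN against young 1 was higher, Rab27b (2.66). Of 33 family members and partners of the markers, 0 passed by limma in either of the first 2 comparisons and 1, Rarg (4.45, or 6.29 without CASIN-treated replicate 2), was higher in CASIN against young and is named after its value was seen. Rarg was at the lowest value in every young sample. The medians of the list of family members and partners were 0.09, -0.19 and -0.03 in the 3 comparisons. No gene of these lists passed after adjustment in any comparison.

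Gp5, a subunit of the platelet receptor complex that binds von Willebrand factor, was the 1 gene of the platelet list past the unadjusted threshold whose groups did not overlap between aged and young, where 1.61% of all genes were higher and 7.54% lower without overlap. It was at the lowest value in 4 of 4 young samples and at 4.62, 2.38, 2.38, 2.79 and 0.89 in the aged samples. CASIN-treated replicate 2 gave 0.52, and the other 2 were at their lowest values of 0.63 and 0.58, so every aged sample also exceeded every CASIN-treated one, where 1.45% of all genes were lower and 3.38% higher without overlap. The differences were 2.05 (SE 0.61, limma adjusted p = 0.65) for aged minus young and -2.04 (SE 0.67, limma adjusted p = 0.948) for CASIN minus aged, which was -2.01 without CASIN-treated replicate 2. Gp5 is also 1 of the 7 mature megakaryocyte genes above. Ppbp, an abundant platelet chemokine of that list named after its values were seen, was at the lowest value in 4 of 4 young samples, between 1.35 and 1.78 in 4 of 5 aged samples, and at 2.03 in CASIN-treated replicate 2 alone. Of the 7 mature megakaryocyte genes, 2 had a positive and 5 a negative aged-minus-young difference, with a median of -0.23. For CASIN minus aged, 3 were positive and 4 negative, with a median of -0.21. The part of mature megakaryocytes in the Gp5 or Itgb3 values was not tested.

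The lists for cells outside the gate also had genes past the unadjusted threshold, of which only Cd4 in aged against young and Ctsg in CASIN against aged meet the rule for naming, and the others were named after their values were seen. Over all genes, 3.2% were higher and 2.13% lower in aged against young, 2.48% and 1.92% in CASIN against aged, and 2.9% and 1.39% in CASIN against young. Of 5 stromal genes, 3 (Lepr, Col1a2 and Pdgfra) were higher in aged than in young at an unadjusted limma p under 0.05, with summed log2 values of 8.90 to 17.5 in young, 18.0 to 29.5 in aged and 8.96 to 24.5 in CASIN-treated samples. These sums also include the lowest values of genes not detected. Col1a2 and Pdgfra were at the lowest value in every young sample. In CASIN against young, 1 stromal gene was higher (Lepr) and 1 lower (Col1a1). Of 6 T cell genes 1, Cd4, was lower in aged (1.88, 1.01, 3.30, 1.30 and 1.36) than in young (4.85, 4.56, 3.62 and 4.79), a difference of -2.68 (limma adjusted p = 0.639), and Cd4 was also higher in CASIN against aged, by 3.15 (limma adjusted p = 0.876). Of 11 granulocyte and monocyte genes, 1, Lyz2, was lower in aged than in young and 1, Ctsg, was higher in CASIN against aged (1.08, limma adjusted p = 0.948), with only CASIN-treated replicate 2 above its lowest value. Without that sample Ctsg differed by 0.46 (limma adjusted p = 0.768) and was no longer past the unadjusted threshold, and nor were Cd38, Cd226, Rab27b and Col1a1 in the comparisons with CASIN-treated samples. Of the HSC, erythroid, B cell and endothelial lists and of Cd34, Flt3 and Il7r, 0 genes passed the unadjusted limma threshold in any comparison. Hbb-b1, Hbb-bs, Hbb-bt and Prtn3 were at the lowest value in all 12 samples. The part of these cells in the marker differences was not tested.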

How the data were processed

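RNA-seq of sorted HSCs was analysed in 12 samples (4 young, 5 aged, 3 CASIN-treated aged). Libraries were made with the Ovation Single Cell RNA-Seq System. Read pairs were quality trimmed by the authors, then mapped by TopHat on mm10 (RefSeq) and passed to Cufflinks. What the authors deposited is a table of log2 expression, quantile normalized, so differences in total RNA are not measured. The step from Cufflinks output to these values is not given in the sources used here, and depth is unknown.

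Values were used as deposited, with no filter on low values and no batch in the labels. One limma 3.58.1 fit (lmFit and eBayes, R 4.3.3) took the 12 samples in 3 groups with no covariate, with two-sided moderated tests and Benjamini-Hochberg adjustment over all 22548 genes at 0.05. Exact two-sided permutation tests were added per marker. A gene at the lowest value enters with that value, and because lowest values differ between samples, its difference can be too small or can arise from the lowest values alone. Alternatives were a common lowest value, centring, filters, a pseudocount, a detection covariate, array weights, a trend, fits of 2 groups, a replicate block and each sample left out. Figures were drawn with matplotlib 3.10.9 in Python 3.11.15. Gene positions are from GENCODE M21 (mm10), matched by symbol for all 10 markers.

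The markers and the lists were chosen with earlier results of these data known. Named from the lists were genes with an unadjusted p under 0.05 and groups that do not overlap, in aged against young or in CASIN-treated aged against aged, at most 4 per list and comparison. Other list genes are named where a count of 5 or fewer called for it or as cell markers. A refit of the named list genes without CASIN-treated replicate 2 was chosen after seeing the data.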

Additional observations from a re-analysis of the deposited data

Results flagged for a closer look

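Over 24 groups of 4 or 5 samples (young and aged, for the 10 markers, their mean and the number detected), 6 values stood far from the rest of their group by Dixon's test at the 95% level. Chance flags about 1 in 20 groups of normally spread values, a rate that does not hold where the other samples of a group share a lowest value, since any 1 detected sample then stands apart. All 6 were single samples in which a marker was detected while most others of the group were at or near the lowest value. They were Vwf in young replicate 4 (4.29), Itga2b in young replicate 3 (4.86), Aldh1a1 in young replicate 5 (4.79), Nupr1 in young replicate 5 (5.80), Aldh1a1 in aged replicate 3 (6.71) and Clu in aged replicate 5 (5.91). No one sample held more than 2 of them.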

How the results depend on the processing

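No marker passed an adjusted p of 0.05 in any alternative. The table of 30 marker differences gave 630 values over the alternatives, of which 576 kept their sign.

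Markers with an unadjusted p under 0.05 numbered 1 in aged against young. They numbered 0 with genes detected in at least 3 samples, with a mean of at least 3 and with an eBayes trend, and 3 by exact permutation, by which 13.1% of all genes passed. Leaving out 1 sample gave 0 to 1. The 1 gene was Nupr1 when values were centred or had a pseudocount of 0.1, and Pf4 with the detection covariate. For CASIN against aged the count was 2. It was 1 with a common lowest value, centring, the pseudocount, the covariate, array weights, a trend or 2 groups only, 0 with either filter, and 3 by exact permutation (5.22% of all genes), with 0 to 2 when 1 sample was left out. For CASIN against young it was 0, and 0 to 1 when 1 sample was left out.

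Deviations from the group means correlated with r from -0.033 to 0.058 over 8 pairs of same-numbered samples. Of 4 young samples, 2 correlated best with the aged sample of their own number. The labels do not say whether the numbers pair the samples. These correlations cannot settle it, as many of the values are lowest values. With the replicate block the counts were 0, 0 and 0, and under this block CASIN minus aged became -0.38 for Fhl1 and 2.05 for Jam2, and CASIN minus young 0.43 for Clu, 0.17 for Nupr1 and 0.29 for Selp.

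The mean over the markers differed by 0.24 for aged minus young (0.94 with a mean of at least 3, which leaves Itgb3 and Fhl1, and 0.12 to 0.39 leaving out 1 sample), by -0.10 for CASIN minus aged (-0.66, and -0.64 to 0.26) and by 0.14 for CASIN minus young (-0.40 to 0.51). Centring, which took the median of all genes from 0.02 to -0.44 in aged minus young and to 0.31 in CASIN minus aged, gave -0.21 and 0.25.

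Signs turned as follows, also for Fhl1 and Itgb3, which were detected in all 12 samples. In aged minus young, Aldh1a1 was -0.040 with array weights, -0.30 centred and -0.12 with the pseudocount, Itga2b -0.34 centred and -0.81 with the covariate, Jam2 -1.44 with the covariate and Pf4 0 with a common lowest value. In CASIN minus aged, Fhl1 was -0.039 with array weights, and Jam2 0.29 centred, 0.83 with the covariate and 0.041 with the pseudocount. In CASIN minus young, Clu was 0.21 and Jam2 -0.60 with the covariate, Clu 0 with a common lowest value and Selp 0.12 with the pseudocount. Leaving out 1 sample gave, in aged minus young, -1.09 to 1.22 for Aldh1a1, -0.14 to 1.33 for Clu, -0.30 to 1.18 for Itga2b, -0.62 to 1.49 for Jam2 and -1.45 to 0.96 for Selp. In CASIN minus aged it gave -1.58 to 0.058 for Aldh1a1, -1.41 to 0.059 for Clu, -0.59 to 0.92 for Fhl1, -2.07 to 1.21 for Jam2, -0.66 to 1.61 for Selp and -0.67 to 2.19 for Vwf. In CASIN minus young it gave -1.42 to 0.034 for Aldh1a1, -0.16 to 0.042 for Clu, -1.05 to 0.60 for Itga2b, -0.75 to 0.31 for Itgb3, -1.42 to 1.61 for Jam2, -1.24 to 0.59 for Nupr1 and -1.23 to 1.41 for Selp. The cause of these turns was not tested.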
